A study of Mus musculus with 15 samples.

Results

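The urea cycle and the enzymes that make and split glutamine were examined in mouse liver tumors through 7 genes, Nags, Cps1, Otc, Ass1, Asl, Glul and Gls2. They were taken as every non-control array probe carrying one of these gene names, which gave 9 probes of the 55681 probes on the array and 7 of its 22594 named genes. Otc and Ass1 had 2 probes each, and the other 5 genes had 1. RNA of whole tumor tissue was measured on 1-colour Agilent arrays, with 1 array per tumor and 5 tumors in each of 3 groups. The groups were hepatocellular carcinoma (HCC) of p53f/f mice, which carry floxed Trp53 alleles and served as controls, HCC of p53LKO mice, in which Trp53 is deleted in the liver, and tumors of p53LKO mice labelled ICC, the usual abbreviation of intrahepatic cholangiocarcinoma. All mice had received carbon tetrachloride (CCl4), a liver toxin, in olive oil by intraperitoneal injection at 0.5 µl per g bodyweight, which the labels give as every 3 days for 16 weeks and the methods as 2 times per week. All 3 groups therefore share chronic liver damage, and untreated or non-tumor liver was not analysed here. The promoter that drives Cre and the ages of the mice behind these arrays are not given in the sources used here, and the legend of the study's transcriptome comparison names male mice. The 5 p53f/f HCC came from 4 mice, since mouse 3717 gave tumors T1 and T2. Of the p53LKO mice, 4 (3731, 3733, 3976 and 5283) gave both an HCC and an ICC, mouse 3975 gave an HCC alone and mouse 3977 an ICC alone.

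The urea cycle turns toxic ammonia into urea and is run in full only by hepatocytes, mainly those around the portal vein. NAGS makes the activator of CPS1, which brings ammonia into the cycle inside mitochondria. OTC forms citrulline there, and ASS1 and ASL build and cleave argininosuccinate in the cytosol. GLS2, the liver type glutaminase, splits glutamine in periportal hepatocytes, and GLUL, glutamine synthetase, captures the remaining ammonia in a thin layer of hepatocytes around the central vein.

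The readout of each gene is the hybridisation of a 60-base probe, so the probe sequence states which stretch of the transcript was measured. Those of the 4 genes below carry the differences between groups described later (Nags, Otc and Asl) or the widest spread among ICC (Cps1). They are printed 5′ to 3′ as the array files give them, all in lower case because no part is singled out, and each holds at least 1 reading frame without a stop codon. The array files place the Nags probe at chr11:102009515-102009574 on the plus strand of mm9 and the Cps1 probe at chr1:67276029-67276088 on the plus strand, and list the printed Otc probe and the Asl probe as unmapped. The printed Otc probe is the dimmer of its 2 probes and was spotted 10 times on every array.
Nags: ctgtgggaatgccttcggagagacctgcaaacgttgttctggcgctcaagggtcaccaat
Cps1: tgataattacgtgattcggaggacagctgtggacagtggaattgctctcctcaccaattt
Otc: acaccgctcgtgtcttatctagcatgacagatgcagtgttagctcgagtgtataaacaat
Asl: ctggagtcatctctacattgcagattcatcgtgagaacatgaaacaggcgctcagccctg

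The remaining probes lie on mm9 at chrX:9897267-9897326 (the brighter Otc probe), chr1:155756765-155756824 (Glul) and chr10:127646830-127646889 (Gls2), all on the plus strand. The brighter of the 2 Ass1 probes, which represents the gene here, is placed by the array files at chr10:61535238-61535297, while the dimmer one lies at chr2:31375998-31376057. The promoter of Ass1 printed below lies on chr2 as well. The brighter probe is also annotated with a noncoding transcript besides Ass1, so its signal may include that transcript, and both probes are given where they differ.

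Levels below are log2 values of the processed signal relative to the 75th percentile of the array, so 0 marks that percentile and a step of 1 is a doubling. They compare tumors for 1 probe and do not rank genes against each other. All 9 probes were well above background on all 15 arrays. A gene was called changed at an adjusted p under 0.05 over all probes tested (limma, Benjamini-Hochberg) together with a fold change over 2. Values in a list follow the order of mice 3681, 3715, 3716, 3717 T1 and 3717 T2 for p53f/f HCC, 3731, 3733, 3975, 3976 and 5283 for p53LKO HCC, and 3731, 3733, 3976, 3977 and 5283 for ICC.

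The arrays lay on 2 slides with an upper and a lower row. All p53f/f HCC were in upper rows and all ICC in lower rows, and 2 of the 5 p53LKO HCC (mice 3976 and 5283) were in a lower row. The share of probes well above background was 37.0% to 47.0% on the 7 arrays of the lower rows and 55.1% to 70.1% on the 8 arrays of the upper rows. Trp53, the deleted gene, was read at the first probe listed for it, which need not be its brightest. Its level was -1.27 to -0.68 in p53f/f HCC, -3.86 to -2.75 in p53LKO HCC and -4.19 to -2.31 in ICC, without overlap between the genotypes. It was not well above background on 1 of 5 p53LKO HCC and 3 of 5 ICC arrays, the lowest of each among them. The ICC label was checked on Krt19, a keratin of bile duct cells, which averaged 2.06 ± 0.49 (SD, n = 5) in ICC and -2.60 ± 1.51 in p53LKO HCC.

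**Figure D1:**
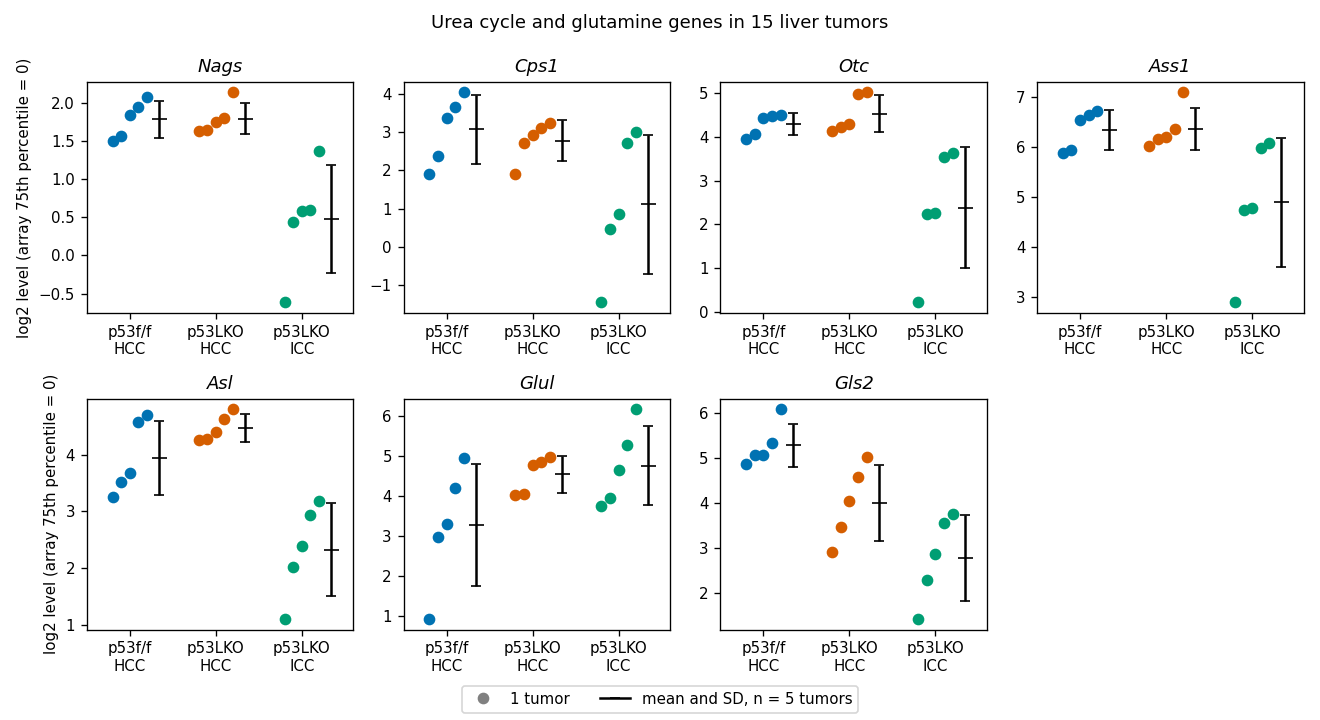
Log2 level of each gene relative to the 75th percentile of its array (y axis, a separate scale per gene) in the 3 tumor groups (x axis), with 1 point per tumor, and mean with SD (n = 5) beside the points. Nags, Otc and Asl in ICC lie below every HCC, and Glul spreads most widely in p53f/f HCC.

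The first comparison, between the HCC of p53LKO and p53f/f mice, asks what accompanies the loss of p53 within 1 tumor type. The paper reports that tumors formed significantly later in p53f/f than in p53LKO mice. Age and time since CCl4 may therefore differ between these groups, and they cannot be told apart from genotype here. Gls2 was 2.43-fold lower in p53LKO HCC, while Nags, Cps1, Otc, Ass1 and Asl did not pass the test in either direction. Of the 7 genes, all of which were tested, 0 were called higher, against 5.42% of all 16849 genes tested, and 1 was called lower, against 9% of them. The groups overlapped for all 7 genes, whereas 18.2% of the genes tested had groups without overlap. The median log2 fold change of the 7 genes was 0.02, beside 0.09 for all genes tested.

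Gls2 is the liver glutaminase that releases ammonia from glutamine beside the urea cycle. It was at 6.08, 4.86, 5.06, 5.34 and 5.06 in p53f/f HCC. In p53LKO HCC it was at 4.57, 3.47, 2.89, 4.04 and 5.02. The p53LKO values spread more widely, 4 of the 5 lay below all p53f/f HCC, and the tumor of mouse 5283 fell within their range. The log2 fold change was -1.28 (SE 0.39, limma adjusted p = 0.0284, exact 2-sided permutation p = 0.0159, where 0.00794 is the smallest that 5 against 5 tumors can give). In tissue RNA, fewer cells of a type and less RNA per cell cannot be told apart, and this applies to every level given here. This call sat close to the threshold. It was lost with the slide as a block (-1.02, adjusted p = 0.0851), with the tumors of mouse 3717 averaged into 1 sample (-1.30, adjusted p = 0.051), and when the tumor of mouse 3681, tumor T1 of mouse 3717, or the p53LKO HCC of mouse 3733 or 3975 was left out (adjusted p = 0.0549 to 0.0645). The lower direction held in each of these. Within slides 1 and 2 the difference was -0.80 and -1.42, and among upper-row arrays -1.63.

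Markers of other cells were set beside Gls2. Of 11 hepatocyte markers, 1 (Apob) was called lower in p53LKO HCC and 0 higher, 4 were lower at an adjusted p under 0.05, the list median was -0.57, and their mean level was 6.61 to 7.67 in the p53f/f tumors and 6.39 to 6.93 in the p53LKO tumors. The mean level of 9 stellate and fibroblast markers was 0.45 to 1.93 and 1.40 to 3.31, with 0 of 9 called or at an adjusted p under 0.05 in limma. Of 9 tested myeloid markers, S100a8 (1.84, adjusted p = 0.0233) and S100a9 (2.10, adjusted p = 0.00794) were called higher in p53LKO HCC and Itgam lower (-2.09, adjusted p = 0.000565). Of 7 endothelial markers, Stab2 was called lower (-1.17, adjusted p = 0.027), and 0 of 6 tested biliary and 0 of 7 lymphocyte markers were called by limma, with 0 and 1 at an adjusted p under 0.05. The part of these cell types in the level of Gls2 was not tested.

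The 5 enzymes of the urea cycle did not pass the test between the HCC groups. Nags averaged 1.79 ± 0.25 (SD, n = 5) with p53 and 1.79 ± 0.21 without it, a log2 difference of 0.01 with a 95% confidence interval of -0.38 to 0.39. That interval leaves no room for a doubling in either direction. For Ass1 the log2 fold change was 0.02 (95% confidence interval -0.53 to 0.58) at the brighter probe and -0.08 at the dimmer one, and for Otc it was 0.24 (-0.25 to 0.74) at the brighter probe and -0.10 at the dimmer one. The signs differed between the probes of each gene, and both differences were smaller than their intervals. The log2 fold change was 0.53 for Asl (95% confidence interval -0.12 to 1.17, adjusted p = 0.187). Cps1 spread over more than 2 log2 units among p53f/f HCC, at 3.37, 1.90, 2.37, 4.03 and 3.64, and stood at 2.72, 2.92, 1.90, 3.1 and 3.23 in p53LKO HCC. In 3 of the 5 p53f/f HCC Cps1 lay above all p53LKO HCC and the other two lay within their range, and the log2 difference of -0.29 had a 95% confidence interval of -1.20 to 0.62. On slide 2, with 3 p53LKO HCC and 1 p53f/f HCC, the log2 difference was 1.35 for Asl and -1.13 for Cps1, against 0.15 and 0.25 on slide 1.

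Glul, which marks hepatocytes of the central vein in normal liver, varied more than any other of the 7 genes among p53f/f HCC. Its level was 2.99, 4.94, 4.20, 0.93 and 3.30 there, and 4.79, 4.05, 4.04, 4.86 and 4.98 in p53LKO HCC. The p53LKO HCC formed a narrow band near the top of the p53f/f range, and tumor T1 of mouse 3717 stood far below all others. The log2 fold change of 1.27 (SE 0.62) did not pass the test (adjusted p = 0.136), and its 95% confidence interval of -0.09 to 2.63 allows both no difference and a large one. Without the p53f/f tumor of mouse 3715 the value was 1.69 and was called (adjusted p = 0.0414), and without tumor T1 of mouse 3717 it was 0.69 (adjusted p = 0.235).

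Within p53f/f HCC the genes did not vary in step. The 2 tumors of mouse 3717 had the highest Cps1 and the lowest Nags, Otc, Ass1 and Asl of the 5. Glul ran the other way from Cps1, with the highest Cps1 (4.03) in the tumor with the lowest Glul (0.93) and the lowest Cps1 (1.90) in the tumor with the highest Glul (4.94). These tumors share a mouse in 2 of 5 cases, so the pattern rests on 4 animals.

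**Figure D2:**
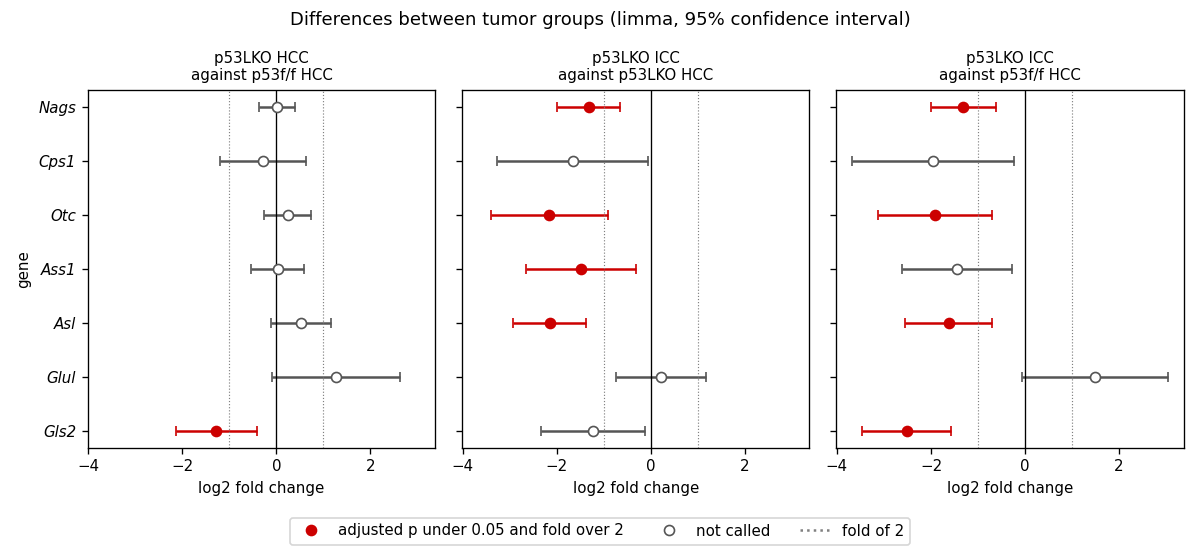
Log2 fold change of each gene (x axis) with its 95% confidence interval from limma in the 3 comparisons, red where the adjusted p was under 0.05 and the fold over 2, and dotted lines at a fold of 2. Gls2 is the called gene between the HCC groups and Nags, Otc, Ass1 and Asl those between ICC and HCC of p53LKO mice.

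The comparison of p53LKO ICC with p53LKO HCC concerns tumor type within 1 genotype. In ICC, Asl was 4.43-fold, Otc 4.45-fold, Ass1 2.78-fold and Nags 2.5-fold lower than in HCC, while Cps1 was not called. Of the 7 genes tested, 4 were called lower, against 15.5% of all 16141 genes tested, and 0 were called higher, against 12.3%. The groups did not overlap for Nags, Otc and Asl, 3 of 7, against 30.8% of the genes tested. The median log2 fold change of the 7 genes was -1.47, beside -0.19 for all genes tested, and 6 of the 7 had a value below 0.

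Asl showed the clearest separation. It was at 3.18, 1.09, 2.01, 2.94 and 2.39 in ICC and at 4.39, 4.80, 4.63, 4.26 and 4.27 in p53LKO HCC. The highest ICC lay more than 1 log2 unit below the lowest HCC, and the log2 fold change was -2.15 (SE 0.35, limma adjusted p = 0.000887, exact 2-sided permutation p = 0.00794). For Otc, the ICC values were 3.62, 0.22, 2.24, 3.55 and 2.27 against 4.30, 4.98, 4.14, 4.22 and 5.01 in HCC. All ICC lay below all HCC, but some lay close below HCC and that of mouse 3733 far below, and the log2 fold change was -2.15 (SE 0.57, adjusted p = 0.0109) at the brighter probe and -2.33 (adjusted p = 0.0119) at the dimmer one.

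Nags, whose product activates CPS1, was at 1.36, -0.62, 0.44, 0.58 and 0.60 in ICC. In p53LKO HCC it was at 1.81, 1.75, 1.65, 1.63 and 2.14. No ICC reached the HCC range, and the log2 fold change was -1.32 (SE 0.31, adjusted p = 0.00604). Ass1 overlapped, at 6.09, 2.90, 4.74, 5.98 and 4.78 in ICC and 6.03, 6.37, 6.21, 6.16 and 7.09 in HCC, since the ICC of mouse 3731 lay among the HCC. Its log2 fold change of -1.47 (SE 0.53, adjusted p = 0.0422) was the weakest of the 4 calls. The dimmer Ass1 probe gave -1.27 and missed the threshold (adjusted p = 0.085), and the call was lost with the mouse as a fixed block in the 4 mice that gave both tumors (-1.79, adjusted p = 0.0603) and when any 1 of the 5 p53LKO HCC or the ICC of mouse 3733, 3976 or 5283 was left out (adjusted p = 0.0511 to 0.0902).

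The 4 calls were checked within batches. Among lower-row arrays alone, 5 ICC and 2 HCC, the log2 difference was -1.94 for Asl, -2.24 for Otc, -1.41 for Nags and -1.73 for Ass1, of which Asl alone was called. On slide 1, which held 1 ICC, these differences were -1.08, -1.0, -0.52 and -0.54, and on slide 2, with 4 ICC, they were -2.50, -2.41, -1.48 and -1.60. The direction was the same in each, and the lone ICC of slide 1 was that of mouse 3731. The slide as a block ended the Ass1 call (-1.30, adjusted p = 0.0651), and the row as a block ended those of Ass1 (-1.73, adjusted p = 0.102) and Otc (-2.24, adjusted p = 0.0594).

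Cps1 and Gls2 were lower on average in ICC without being called. Cps1 ranged from -1.45 to 2.99, at 2.99, -1.45, 0.46, 2.71 and 0.84, a span of over 4 log2 units among 5 tumors of 1 label. The ICC of mice 3731 and 3977 lay inside the HCC range and the other 3 below it, and the log2 fold change of -1.66 (SE 0.73) had an adjusted p of 0.0854. Gls2 was at 3.76, 1.41, 2.27, 3.55 and 2.85, with a log2 fold change of -1.23 (adjusted p = 0.0668). With the mouse as a fixed block in the 4 mice that gave both tumors, Gls2 was called (-1.70, adjusted p = 0.0142). Gls2 was also called without the p53LKO HCC of mouse 3975 (-1.51, adjusted p = 0.033). Both genes were called without the ICC of mouse 3731, when 6 of the 7 genes passed, and Cps1 without that of mouse 3977, when 5 did.

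Glul was the 1 tested gene of the 7 that was not lower on average. It was at 4.64, 3.76, 5.28, 6.17 and 3.96 in ICC, which spans the p53LKO HCC range on both sides. The log2 fold change of 0.22 had a 95% confidence interval of -0.74 to 1.17 (adjusted p = 0.704), and its sign turned when the ICC of mouse 3977 was left out (-0.13) or the 4 mice with both tumors were compared in pairs (-0.26).

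**Figure D3:**
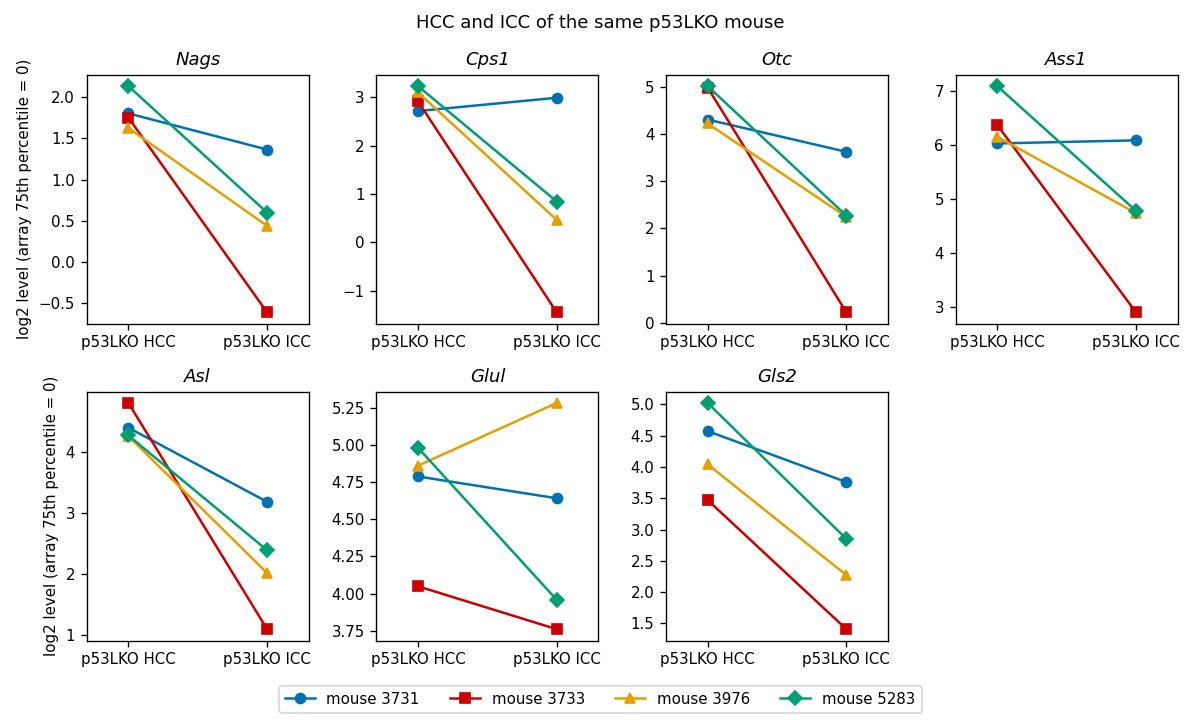
Log2 level (y axis, a separate scale per gene) in the HCC and the ICC of the 4 p53LKO mice that gave both tumors (x axis), joined by a line per mouse. Mouse 3733 has the largest fall from HCC to ICC in Nags, Cps1, Otc, Ass1 and Asl, and mouse 3731 the smallest change in those 5 genes.

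The HCC and ICC of the same mouse could be set against each other in 4 mice. In mouse 3733, ICC was lower than HCC for all 7 genes, with log2 differences of -4.76 for Otc, -4.37 for Cps1 and -3.71 for Asl and a median of -3.47. In mouse 5283 all 7 genes were lower as well, with a median of -2.17, and in mouse 3976 6 of 7 were, with a median of -1.77. Mouse 3731 differed, with a median of -0.44 and 5 of 7 genes lower. There Ass1 (0.06) and Cps1 (0.28) had about the same level in both tumors, while Asl (-1.21) and Gls2 (-0.81) were lower in the ICC. Asl, Nags, Otc and Gls2 were lower in the ICC of all 4 mice.

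**Figure D4:**
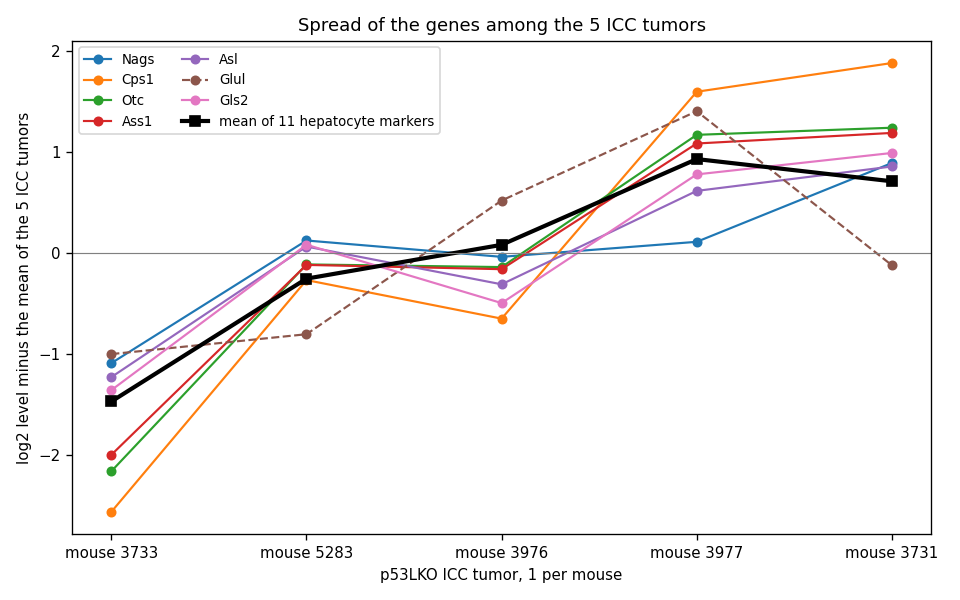
Log2 level of each gene minus its mean over the 5 ICC tumors (y axis) for each ICC tumor (x axis, in an order chosen for display), with the mean of 11 hepatocyte markers as a black line and Glul dashed. All genes except Glul are highest in mouse 3731, all are lowest in mouse 3733, and the hepatocyte markers are lowest in mouse 3733 and highest in mice 3977 and 3731.

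The 5 ICC thus differed from each other in a way most of the genes shared. Nags, Cps1, Otc, Ass1, Asl and Gls2 were all highest in the ICC of mouse 3731, and all were lowest in that of mouse 3733. Hepatocyte markers moved alongside. The mean level of 11 of them (Alb, Ttr, Apoa1, Apob, Fah, Tat, Hnf4a, Serpina1a, Cyp2e1, Hpd and Trf) was 6.26, 4.08, 5.63, 6.48 and 5.30 in ICC, against 6.39 to 6.93 in p53LKO HCC and 6.61 to 7.67 in p53f/f HCC, and all 11 were well above background on all arrays. Their summed signal, in multiples of the array's 75th percentile, was 817 to 2186 in ICC, 2735 to 3647 in p53LKO HCC and 3465 to 5947 in p53f/f HCC. Of the 11 markers, 7 were called lower in ICC than in p53LKO HCC and 0 higher. Markers of bile duct, stellate and fibroblast cells were higher, with 4 of 8 tested biliary and 6 of 9 stellate and fibroblast markers called, although the biliary markers Krt7 and Epcam passed the filter through the ICC arrays and were well above background on 1 and 0 of the 5 p53LKO HCC arrays. The part of these cell types in the levels of the urea cycle genes was not tested.

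Against the HCC of control mice, p53LKO ICC differed in genotype and tumor type at once, and possibly in the age of the mice. Gls2 showed the largest difference of the 7 genes, 5.71-fold lower, and Otc, Asl and Nags were 3.75-fold, 3.07-fold and 2.48-fold lower. All 7 genes were tested, and 4 were called lower, against 11.9% of all 16795 genes tested, with 0 called higher, against 11.3%. The same 4 genes had groups that did not overlap, against 27.9% of the genes tested. The median log2 fold change was -1.62, beside -0.16 for all genes tested. Gls2 gave -2.51 (SE 0.43, adjusted p = 0.00184), and its mean of 4.0 in p53LKO HCC lay between 5.28 in p53f/f HCC and 2.77 in ICC. Ass1 (-1.45, adjusted p = 0.0555) and Cps1 (-1.95, adjusted p = 0.0757) were not called, nor was Glul (1.49, 95% confidence interval -0.06 to 3.04, adjusted p = 0.124). With the slide as a block, Gls2 alone kept its call (-2.06, adjusted p = 0.0309), and Nags (-0.87, adjusted p = 0.118), Otc (-1.36, adjusted p = 0.198) and Asl (-1.04, adjusted p = 0.161) lost theirs. Within slide 1, with 1 ICC, the difference of Gls2 was -1.58, and within slide 2, with 1 p53f/f HCC, it was -2.54. All p53f/f HCC lay in upper and all ICC in lower rows, so that row and group cannot be told apart here. The comparison shares its arrays with both others.

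The choice of scaling moved all genes together. Scaling to those probes that every array measured above background shifted the median of all genes from 0.09 to -0.15 between the HCC groups and from -0.19 to 0.18 between ICC and HCC of p53LKO mice. Gls2 remained called lower in the former, while in the latter Otc and Asl remained called and Nags (-0.95, adjusted p = 0.0258) and Ass1 (-1.10, adjusted p = 0.116) did not.

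Some genes varied together among tumors beyond the group means. After subtraction of each group's mean, Otc and Ass1 had the closest relation of the 21 pairs (Pearson r = 0.97, Spearman rho = 0.93 over 15 arrays, r = 0.91 without the 2 arrays farthest from the median of Otc, and r = 0.83 over the 10 HCC arrays). Nags followed both, with r = 0.92 for Ass1 and 0.89 for Otc. Ass1 was read here at its brighter probe, and r was not computed at the dimmer one. Within groups of 5 arrays, r of Cps1 with Asl was -0.95 in p53f/f HCC, -0.50 in p53LKO HCC and 0.99 in ICC, and with Otc it was -0.77, 0.59 and 0.99 in the same order. With Gls2 it was above 0 in each group, at 0.48, 0.75 and 0.99. These differences between groups were not tested. The 15 arrays include tumors that share a mouse, and leaving out the 2 arrays farthest in Nags lowered its r with Otc to 0.59, so these values are descriptions.

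Among 11321 genes measured on all arrays, the 3 whose group-centred levels most resembled each member were as follows. Nags went with Ethe1 (r = 0.94), a mitochondrial sulfur dioxygenase, and then with Ass1 and Otc. Cps1 was closest to Tdo2 (r = 0.95), which degrades tryptophan, Uroc1 (r = 0.92), which follows Hal in the breakdown of histidine, and Pck1 (r = 0.91), a key enzyme of gluconeogenesis. Otc resembled Cd1d1 (r = 0.97), Ass1 and Upb1 (r = 0.96), and Ass1 resembled Otc, Mat1a (r = 0.95) and Cd1d1 (r = 0.95). Asl was nearest to Apol7a (r = 0.94), Glo1 (r = 0.93) and Khk (r = 0.92), the fructokinase. Glul went with Angptl4 (r = 0.94), Slco2b1 (r = 0.87) and Csad (r = 0.86), and Gls2 with Hal (r = 0.91), the histidase of periportal hepatocytes, Slc38a4 (r = 0.91), an amino acid transporter, and Nr0b2 (r = 0.90). The 15 arrays include the wide spread among ICC, so these ranks are descriptions. Among the members, r of Cps1 with Otc was 0.79 over all arrays and -0.08 over the 10 HCC arrays. For Otc with Ass1 it was 0.97 and 0.83.

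Promoter sequence was at hand in RefSeq (GRCm38.p6) for 4 of the 7 genes, Otc, Ass1, Nags and Glul. The 250 bases before the start of Otc (chrX:10252055-10252304, plus strand) and Ass1 (chr2:31470020-31470269, plus strand) are shown because this pair varied most closely together. They were searched on both strands for the motif TATAAA of the TATA box, for CCAAT of the CCAAT box, for GGGCGG of the GC box and for the E-box CACGTG, and capitals mark a match.
Otc: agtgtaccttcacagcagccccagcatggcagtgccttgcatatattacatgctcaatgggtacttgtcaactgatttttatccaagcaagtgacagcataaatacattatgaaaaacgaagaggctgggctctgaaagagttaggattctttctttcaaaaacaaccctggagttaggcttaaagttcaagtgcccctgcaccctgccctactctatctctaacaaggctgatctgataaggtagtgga
Ass1: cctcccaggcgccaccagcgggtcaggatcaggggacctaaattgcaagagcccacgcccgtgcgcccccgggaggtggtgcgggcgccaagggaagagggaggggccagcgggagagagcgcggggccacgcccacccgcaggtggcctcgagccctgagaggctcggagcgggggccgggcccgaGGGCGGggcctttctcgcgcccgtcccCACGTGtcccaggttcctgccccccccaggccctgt

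The Otc stretch held none of the 4 motifs, while that of Ass1 held 1 GGGCGG and 1 CACGTG. Nags held 2 matches to GGGCGG, and Glul 2 to CCAAT and 1 to GGGCGG. Of the 32851 promoters of the same length in the table, 12.4% held TATAAA, a share of 33.8% held CCAAT, a share of 32.7% held GGGCGG and 6.0% held CACGTG. No motif was common to Otc and Ass1.

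The partners of the cycle were read from further lists. Of 10 genes of transport and supply, Slc7a1, the main importer of arginine outside hepatocytes, was the 1 called between the HCC groups (1.04 higher on the log2 scale in p53LKO HCC, SE 0.25, adjusted p = 0.00944), with 0 lower and a list median of 0.02. In ICC against p53LKO HCC 3 of the 10 were called lower and 0 higher. They were Car5a, which supplies bicarbonate to CPS1 (-2.43, adjusted p = 0.00822), Slc25a15, the mitochondrial ornithine carrier (-1.84, adjusted p = 0.0104), and Glud1, glutamate dehydrogenase (-1.06, adjusted p = 0.0158). The list median was -0.92.

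Of 10 genes that use ornithine or arginine, Srm, spermidine synthase, was called higher in p53LKO HCC (1.19, adjusted p = 0.00161) and 0 were called lower. ICC had 3 higher and 2 lower than p53LKO HCC, among them Oat, ornithine aminotransferase (2.0 higher, adjusted p = 0.0276), Nos2, the inducible nitric oxide synthase (1.80, adjusted p = 0.00566), and Agmat, agmatinase (-1.90, adjusted p = 0.00367). Of the 17 tested of 18 genes of glutamine and glutamate handling, 0 were called between the HCC groups at the thresholds used, although 2 had an adjusted p under 0.05 with a smaller fold, both higher. In ICC 3 were called higher, the transporters Slc38a1 (4.42, SE 0.36, adjusted p = 2.25e-05), Slc1a5 (3.00, adjusted p = 9.16e-05) and Slc1a2 (2.46, adjusted p = 0.0135), and 3 were lower, the transaminases Got2 (-2.20, adjusted p = 0.000254), Gpt and Gpt2.

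**Figure D5:**
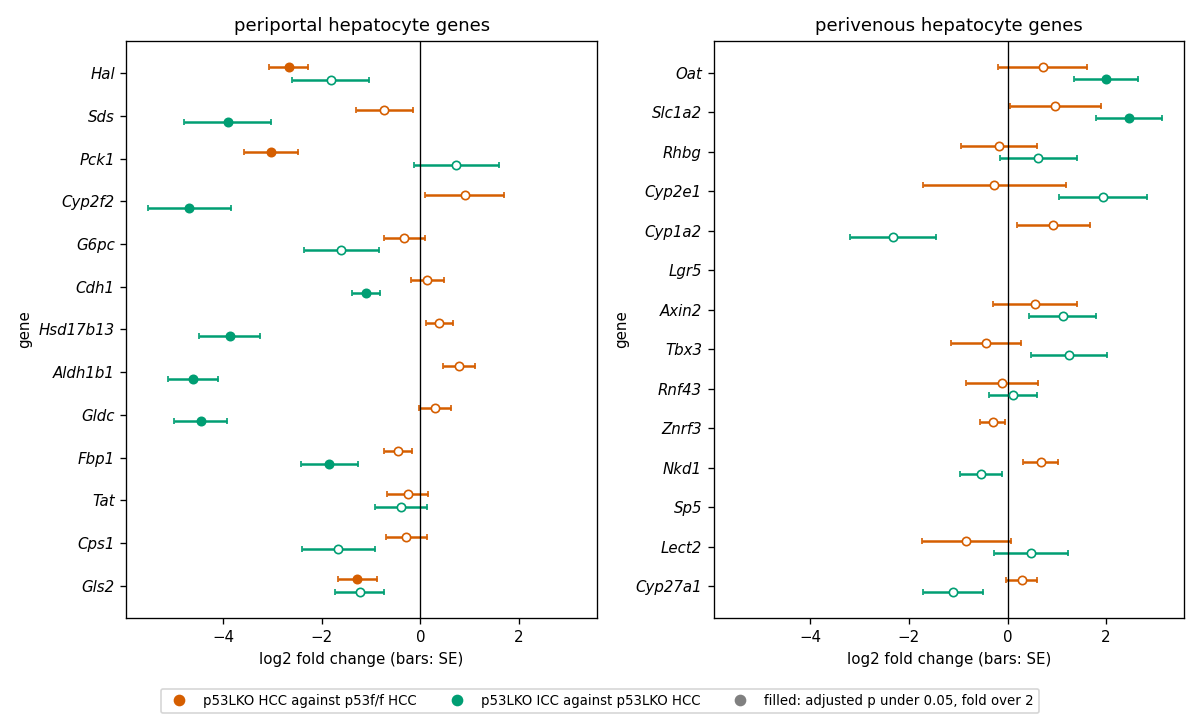
Log2 fold change (x axis) with its SE for 13 periportal (left) and 14 perivenous (right) hepatocyte genes between the HCC groups (orange) and between ICC and HCC of p53LKO mice (green), filled where the adjusted p was under 0.05 and the fold over 2, and with no point where fewer than 3 arrays of either group were well above background. Orange filled points are the periportal genes Hal, Pck1 and Gls2, all lower in p53LKO HCC, and green filled points lie below 0 among periportal genes and above 0 among perivenous genes.

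Because Cps1 and Gls2 belong to the periportal zone and Glul to the perivenous one, both zones were described. Of 13 periportal genes, 3 were called lower in p53LKO HCC than in p53f/f HCC and 0 higher. Besides Gls2 these were Pck1 (-3.03, SE 0.54, adjusted p = 0.00196) and Hal (-2.67, SE 0.39, adjusted p = 0.00057), while the list median was -0.29 and Cyp2f2, Aldh1b1 and Gldc, other periportal genes, had values above 0 (0.90, 0.78 and 0.30, none called). Of 14 perivenous genes 0 were called by limma, and 0 had an adjusted p under 0.05 (list median -0.05). In ICC against p53LKO HCC, 7 periportal genes were lower and 0 higher (list median -1.82), led by Cyp2f2 (-4.68), Aldh1b1 (-4.61), Gldc (-4.46) and Sds (-3.91). Gls2 was not among those 7, nor were Hal and Pck1. In the perivenous list 4 were called higher and 0 lower (list median 0.88). Cyp1a2 (-2.33, limma adjusted p = 0.0505), Cyp27a1 (-1.11) and Nkd1 (-0.54) had values below 0, none called, and the rest of the list lay above 0. Over the 11 genes of that list that 3 or more arrays of each group measured well above background, a selection made after seeing the data, 2 were higher and 0 lower (median 0.63). Of the 4, Slc1a2 (2.46) and Oat (2.0) were well above background on all 10 arrays. The other two, Sp5 and Lgr5, passed the filter through the ICC arrays and were well above background on 1 of 5 and 2 of 5 p53LKO HCC arrays, so no size is given for them.

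A list of 11 transcription factors and receptors linked to the transcription of urea cycle genes was read as well. Cebpb (1.02 higher in p53LKO HCC, adjusted p = 0.00213) was the 1 called between the HCC groups, with 0 lower. In ICC, 3 were lower than in p53LKO HCC and 1 higher, with Ppara (-2.48, adjusted p = 0.00199), Gcgr, the glucagon receptor (-2.08, adjusted p = 0.00652), and Hnf4a (-2.03, adjusted p = 0.000396) lower and Nfya (1.94, adjusted p = 0.000141) higher. Their bearing on the levels of the 7 genes was not tested.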

How the data were processed

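The tumors were hybridised to 1-colour Agilent arrays, which the authors read with Feature Extraction 10.7.3.1. Per the file headers, the processed signal of a spot is an intensity from which background has been removed. The authors also deposited a table of log2 values. Set against the arrays, it closely matches the log2 processed signal less the array's 75th percentile, with a median over 10 arrays taken off each probe (r at least 0.99989, column medians -0.325 to 0.344), and it served as an alternative for the HCC groups.

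In R 4.3.3 with limma 3.58.1, log2 processed signals were averaged over the spots of a probe, leaving out 2339 outlier spots over all arrays (0 were saturated), and the array's 75th percentile over non-control probes was subtracted. A probe was tested if 3 or more arrays of 1 group measured it well above background. Each comparison used its 10 arrays, with Benjamini-Hochberg adjustment over all probes tested. Single values have an exact permutation test over 252 splits. The brightest probe on average stands for a gene, except for Trp53, which was read at its first listed probe. Named genes are the 7 members, up to 4 called genes per list with the largest change, and the 3 nearest genes of each member. Gpt, Gpt2, Krt19, Epcam, Apob and, between the HCC groups, Cyp2f2, Aldh1b1 and Gldc were named after their values were seen. The same holds for Cyp1a2, Cyp27a1 and Nkd1 in ICC against p53LKO HCC. The members, lists and alternatives were chosen with earlier results of these data known, and some genes of the set and the lists are not reported here and were left out of all counts over them.

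Mouse numbers pair HCC and ICC of 4 mice as the same animals. Deviations from the group means correlated at -0.142 to 0.066 within these pairs and at -0.263 to 0.283 in the 21 others. P-values measure the spread between tumors, of which 2 p53f/f HCC share a mouse. The fit was tested on simulated data. How many arrays there are, and how far a signal exceeds background, limits the precision. Plots were made with matplotlib 3.10.9 (Python 3.11.15).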

Additional observations from a re-analysis of the deposited data

Results flagged for a closer look

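At the dimmer Ass1 probe, the p53LKO HCC of mouse 5283 stood apart from the other 4 tumors of its group, with a log2 level of 6.36 against 5.16 to 5.42. The same tumor was also the highest of its group at the brighter Ass1 probe (7.09). It was the 1 outlying value among 27 groups of 5 values tested, and chance gives about 1 in 20 such groups.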

How the results depend on the processing

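Between the HCC groups, the count of 1 called gene (Gls2) became 0 without a filter on dim probes (adjusted p = 0.0602), with the slide as a block and with the tumors of mouse 3717 averaged, an alternative chosen after seeing the data, and was 0 to 2 when single tumors were left out. Values near 0 changed sign. For Nags these were -0.012 (normexp background correction), -0.19 (quantile normalization), -0.24 (scaling to probes above background on all arrays), -0.052 (row as a block, or upper row alone), -0.056 (mouse 3717 averaged) and -0.079 to 0.079 (single tumors left out). For Ass1 they were -0.0093, -0.11, -0.22, -0.14, -0.084 and -0.16 to 0.12 in the same order, and -0.08 at its other probe. Otc gave -0.0011 under that scaling and -0.10 at its other probe.

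Between ICC and p53LKO HCC, 2 of the 4 calls remained under the scaling above and with the row as a block, and 1 (Asl) in the lower row alone. The Ass1 call was also lost with quantile normalization (-1.02, adjusted p = 0.156) and without the filter (adjusted p = 0.0767), and Gls2 was gained among probes above background on every array (adjusted p = 0.0496) and with all 15 arrays in 1 model (adjusted p = 0.038). The count was 3 to 6 without single tumors. Glul turned to -0.16 with the row as a block or in the lower row alone, to -0.26 with the replicate block in 4 mice, and spanned -0.13 to 0.47 without single tumors. That replicate block gave 4 called genes, with Gls2 gained and Ass1 lost, and the mouse as a random block (consensus correlation 0.0439) also gave 4. Against p53f/f HCC the 4 calls became 1 with the slide as a block and 4 to 6 without single tumors. Ass1 was gained there with normexp, without the filter, on every array and with all 15 arrays (adjusted p = 0.027 to 0.0429), and Cps1 with all 15 arrays (adjusted p = 0.0387). A mouse block was not fitted there or between the HCC groups, where 1 mouse alone gave 2 tumors of a group. A row block could not be fitted for ICC against p53f/f HCC.

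Over all probes, 7086 were called between the HCC groups (18.5% of them higher), 2892 with normexp (32.2%) and 1850 among probes above background on every array (54.2%), and the higher share was 29.3% with quantile normalization and 7.35% under the other scaling. For ICC against p53LKO HCC the 8615 calls (49.0% higher) became 5614 with normexp and 4333 on every array (33.9%), and 73.5% were higher under the other scaling. For ICC against p53f/f HCC the 6937 calls (38.2% higher) became 3750 with normexp, 19132 without a filter (76.6%), 3757 on every array (50.5%) and 3700 with the slide as a block, and 48.5% were higher under the other scaling. The causes were not tested.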
